A study of Danio rerio with 4 samples.

Results

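Red blood cells of the larval zebrafish express, beside the globins, a small set of genes for transcription factors, heme synthesis, the cell membrane and carbonic anhydrase. A total of 10 such genes was chosen by symbol: *gfi1b* and *si:dkey-25o16.2*, which RefSeq names *hemgn*, together with *alas2*, *slc4a1a*, *gata1a*, *klf1*, *cahz*, *epb41b*, *epor* and *tfr1a*. Of these, 8 were found among the 756 genes of the deposited table, and *epor* and *tfr1a* were not analysed here because the table holds no row for them. The table lists only genes that passed the authors' own test between the 2 groups at a Q value under 0.05, so a difference between the groups was a condition for a gene to be seen at all.

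The cells came from dissected heads of wild-type zebrafish larvae at 48 hpf. All larvae carried a BAC transgene in which *apln* regulatory sequence drives Venus-PEST, a yellow fluorescent protein with a short half-life, and a second transgene, *Tg(kdrl:Hsa.HRAS-mCherry)*, which labels endothelial cells. After FACS, 2 libraries were made from Venus positive, mCherry negative cells and 2 from double negative cells, the latter a mixture of every head cell type without either reporter. RNA was profiled by bulk Smart-seq2, which amplifies full-length cDNA from small inputs. The double negative libraries are called replicates 1 and 2, and the Venus positive libraries 3 and 4, as the table numbers them. Neither the labels nor the methods state that the libraries within a group are independent sorts. The p-values thus cover the spread among these particular libraries, part of which may be technical.

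The listed genes held 876579 to 1175560 reads per library, and the total depth of the libraries is not known from the sources used. Counts were divided by the authors' size factors (0.80 to 1.22) and are called normalized read counts. Values per length are given as TPM, a measure that corrects for transcript length and sums to the same total in every library. *apln* itself, whose reporter defined the gate, was higher in the Venus positive libraries (11006 and 8899 normalized read counts) than in the double negative libraries (651 and 802), the order that the labels give. No read carried a molecular identifier, so intervals and limits treat each read as independent. They cover the counting of reads only, and are too narrow where amplification copied the same molecule.

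In vertebrates, red cell precursors switch on Gata1, which acts with partners such as Klf1 and Gfi1b to activate or repress the genes of the lineage. These cells then make heme in their mitochondria, fill with hemoglobin, and build a membrane in which an anion exchanger is tied to a spectrin skeleton. Carbonic anhydrase in the cytoplasm and the anion exchanger in the membrane together serve the transport of carbon dioxide as bicarbonate. At 48 hpf the circulating red cells of the zebrafish are of the primitive wave.

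All 8 genes were lower in the Venus positive than in the double negative cells, and in each of them both Venus positive libraries lay below both double negative libraries. The same held for 271 of the 756 genes of the table, and for the other 485 both Venus positive libraries lay above. This separation is therefore shared by the whole table and is not a trait of the 8 genes. Summed over the 8 genes, the normalized read counts were 7455 and 5933 in double negative replicates 1 and 2 and 103 and 189 in Venus positive libraries 3 and 4, which left 2.18% of the double negative mean. The remaining share ranged from 0 reads for *gata1a* and *gfi1b* to 10.4% for *hemgn*. All 8 passed edgeR's quasi-likelihood test (adjusted p under 0.05). The test called 754 of 754 genes tested (100%), 270 of them lower (35.8%), because the table was selected on this contrast. With p-values adjusted over the 23016 genes the authors tested, all 8 were still called, against 194 genes lower (25.7%). These calls therefore add no evidence about the 8 genes beyond their place in the table. In the adjustment over 23016 genes only the listed genes could be ranked. For the p-values at hand its adjusted values are thus upper limits, and a gene above 0.05 might still pass with full ranks. The p-values themselves rest on a spread estimated from the selected genes only. A fit over all genes could give other p-values, and a gene just under 0.05 might then not pass. The median log2 change was −6.39 for the 8 genes (−5.28 with the genes at 0 reads set to their bound), −4.70 for all 270 lower genes (−3.73 with such genes at their bound) and 1.85 for all genes tested. In bulk samples, fewer cells of a type and less RNA per cell cannot be told apart.

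**Figure D1:**
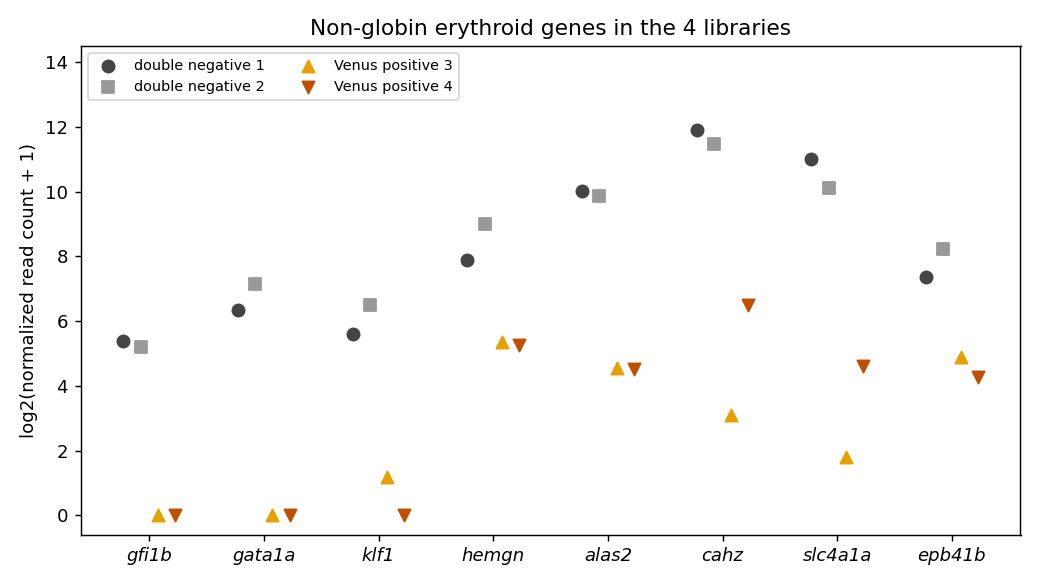
Normalized read counts of the 8 genes on a log2 scale, with 1 added before the logarithm. Each point is 1 library. The Venus positive libraries (triangles) lie below the double negative libraries (circle and square) for every gene, and *gfi1b* and *gata1a* sit at 0 in both Venus positive libraries.

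The transcription factors are given first. *gata1a* (gene ID 30481) encodes the zinc finger factor that is required for the red cell lineage. It had 80.5 and 139 normalized read counts in double negative replicates 1 and 2 and no read in either Venus positive library. A count of 0 was taken to allow up to 3 reads per library. By that limit *gata1a* was at least 34.4-fold below its double negative mean (edgeR quasi-likelihood, adjusted p = 9.1e-05). Bounds of this kind, here and below, leave out the spread between the double negative libraries. *gata1a* passed the filter on low counts only through the double negative libraries, which fixed its direction, so its p-value adds no support.

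*gfi1b* (gene ID 100151531), a zinc finger repressor of the erythroid and thrombocyte lineages, had 41.1 and 35.8 normalized read counts in double negative replicates 1 and 2, from 50 and 35 reads. Both Venus positive libraries again had 0 reads. This made *gfi1b* at least 12.1-fold lower than its double negative mean (edgeR quasi-likelihood, adjusted p = 3.9e-04). It too passed the filter only through the double negative libraries, so its p-value adds no support. The lower bound is smaller than for *gata1a* because fewer reads stood behind it, and the sizes of both changes beyond their bounds were not detectable at this depth. A count of 0 in both Venus positive libraries was found for 60 genes of the table.

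*klf1* (gene ID 30104), the Krüppel-like factor that activates globin and other red cell genes in mammals, had 47.7 and 89.0 normalized read counts in the double negative libraries. A single read was found in Venus positive library 3 and none in library 4. The ratio of the groups, from 145 reads against 1, was 129 with a 95% exact interval of 22.7 to 5117 (edgeR quasi-likelihood, adjusted p = 3.4e-04). *gata1a*, *gfi1b* and *klf1* are the 3 genes of the group that passed the filter on low counts only through the double negative libraries, and were therefore bound to differ between the groups.

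*hemgn* (gene ID 564833), whose mammalian counterpart is a nuclear protein of blood cell precursors, kept reads in both Venus positive libraries. It had 237 and 511 normalized read counts in double negative replicates 1 and 2, and 40.2 and 37.3 in Venus positive libraries 3 and 4. The double negative libraries differed from each other 2.16-fold, whereas the Venus positive libraries lay close together. The change was −3.27 on the log2 scale (SE 0.73, edgeR quasi-likelihood, adjusted p = 8.5e-04), and the group means were 374 ± 194 and 38.8 ± 2.06 (SD, n = 2). Without double negative replicate 2 the log2 change was −2.61. The Venus positive level rested on 32 and 43 reads, with 95% exact Poisson limits of 27.5 to 56.8 and 27.0 to 50.3 normalized read counts.

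*alas2* (gene ID 64607) encodes the erythroid form of the enzyme that starts heme synthesis. It had 1029 and 933 normalized read counts in double negative replicates 1 and 2, and 22.6 and 21.7 in Venus positive libraries 3 and 4. Replicates of both groups lay close together, closer than for the other genes with reads in all 4 libraries. The mean fell 44.3-fold, from 981 ± 67.9 to 22.2 ± 0.66 (SD, n = 2), and the log2 change was −5.46 (SE 0.61, edgeR quasi-likelihood, adjusted p = 3.4e-06).

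The membrane was represented by 2 genes. *slc4a1a* (gene ID 84703) encodes the anion exchanger of the red cell membrane, and *epb41b* (gene ID 326287) a protein that joins the spectrin and actin skeleton to that membrane. *slc4a1a* had 2061 and 1104 normalized read counts in double negative replicates 1 and 2, and 2.51 and 23.4 in Venus positive libraries 3 and 4. The low value of library 3 came from 2 reads (95% exact Poisson limits 0.30 to 9.08 normalized read counts), and that of library 4 from 27 reads (15.4 to 34.1). These limits do not overlap, so the Venus positive libraries differed, by 9.32-fold, beyond the counting error of reads. Whether they differed beyond the sampling of molecules cannot be told without molecular identifiers. The log2 change was −6.84 (SE 0.79, edgeR quasi-likelihood, adjusted p = 4.7e-06), −9.23 without library 4 and −6.07 without library 3.

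*epb41b* had 163 and 295 normalized read counts in double negative replicates 1 and 2, and 28.9 and 18.2 in Venus positive libraries 3 and 4, a log2 change of −3.29 (SE 0.81, edgeR quasi-likelihood, adjusted p = 0.0015). A share of 10.3% of the double negative mean was left, close to the 10.4% of *hemgn*, whereas *slc4a1a* kept 0.82%. Among the 8 genes, *epb41b* was nearest to the threshold when p was adjusted over the 23016 genes (adjusted p = 0.046, edgeR quasi-likelihood).

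*cahz* (gene ID 30331), the carbonic anhydrase of zebrafish red cells, was the most abundant gene of the group. It held 50.9% and 47.6% of the normalized read counts of the 8 genes in double negative replicates 1 and 2. Its level was 3795 and 2825 normalized read counts there, and 7.54 and 88.5 in Venus positive libraries 3 and 4. As for *slc4a1a*, library 3 was far below library 4, here by 11.7-fold, with 6 and 102 reads (95% exact Poisson limits 2.77 to 16.4 and 72.2 to 107 normalized read counts). The log2 change was −6.07 (SE 0.81, edgeR quasi-likelihood, adjusted p = 2.0e-05), −8.75 without library 4 and −5.22 without library 3.

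On the TPM scale, which takes transcript length into account, the double negative cells held *cahz* at 329 and 185 TPM in replicates 1 and 2. *slc4a1a* (72.6 and 29.6 TPM) and *alas2* (51.9 and 35.8 TPM) followed, and their ranges overlapped. *hemgn* came next with 10.9 and 17.9 TPM, above *gata1a* with 6.38 and 8.35 TPM and *epb41b* with 3.87 and 5.33 TPM. *klf1* (2.36 and 3.34 TPM) and *gfi1b* (2.79 and 1.78 TPM) were lowest and overlapped. The genes of the enzymes and of the anion exchanger thus stood above *gata1a*, *gfi1b*, *klf1*, *hemgn* and *epb41b* in both libraries. The 8 genes summed to a mean of 384 TPM in the double negative cells, beside 93020 TPM for the 11 globin rows of the table. In the Venus positive cells the authors' mean values summed to 8.41 TPM for the 8 genes and 1603 TPM for the globins.

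The globin genes served as the comparison, since red cells are known to express both. Summed over 11 rows, they had 236303 and 440909 normalized read counts in double negative replicates 1 and 2, and 6294 and 4241 in Venus positive libraries 3 and 4, leaving 1.56%. The most abundant rows, listed as *hbae1.3*, *hbbe1.3* and *hbae1*, changed by −5.94, −6.02 and −6.13 on the log2 scale (*hbae1.3* by −5.30 without double negative replicate 2). Near-identical globin copies can share reads, so single rows are uncertain and the sum is used below. The 9 globin rows with more than 3 reads in both Venus positive libraries kept 1.47% to 2.98% of their double negative mean in library 3 and 0.70% to 1.93% in library 4. *hemgn* (10.8% and 9.98%) and *epb41b* (12.6% and 7.94%) lay above the globin rows in both libraries. This was not particular to them. Of the further red cell membrane genes described below, *sptb* (3.25% and 10.8%), *dmtn* (17.6% and 33.8%) and *aqp1a.1* (30.9% and 25.4%) also lay above, and *rhd* had 0 reads. The *sptb* value of library 3 came from 6 reads, so its place above the globin rows there is uncertain. *alas2*, *cahz* and *slc4a1a* changed place between the libraries. *alas2* lay inside the globin range in library 3 (2.31%) and above it in library 4 (2.21%), *cahz* below it in library 3 (0.23%) and above it in library 4 (2.67%), and *slc4a1a* below it in library 3 (0.16%) and inside it in library 4 (1.48%).

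**Figure D2:**
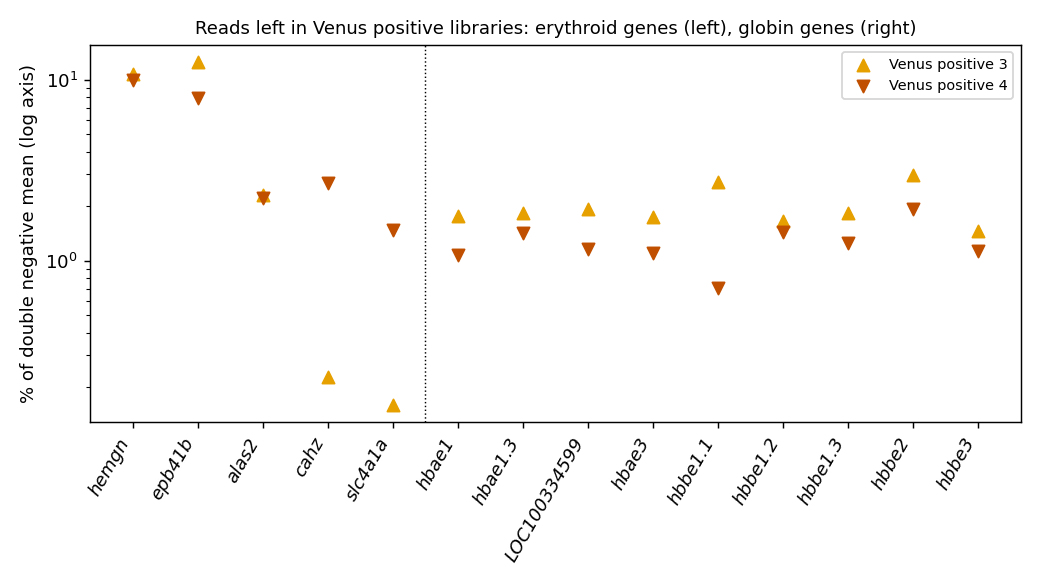
Normalized read count in each Venus positive library as a percentage of the double negative mean, on a log axis, for the 5 erythroid genes with reads in both libraries (left of the dotted line) and the 9 globin rows with more than 3 reads in both (right). *hemgn* and *epb41b* lie above every globin row in both libraries, and *cahz* and *slc4a1a* lie below them in library 3.

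Each gene was then set against the globin sum of its own library. *hemgn* had 10.01 and 11.6 reads per 10000 globin reads in double negative replicates 1 and 2, and 63.9 and 88.0 in Venus positive libraries 3 and 4, a 6.96-fold higher ratio. *epb41b* had 6.92 and 6.70 against 45.9 and 43.0, a 6.52-fold higher ratio. For both genes the groups did not overlap, and the difference exceeded the spread within groups. This is not particular to them, because the globin sum itself was lower in both Venus positive libraries. At least the 485 of 756 genes with both Venus positive libraries above therefore also had a higher, non-overlapping ratio. How many of the other 271 genes did so was not counted. The exact permutation test gave p = 0.333 for *hemgn* and for *epb41b* (two-sided). That is the smallest p that 2 libraries against 2 allow, so this design cannot pass a threshold of 0.05.

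For *alas2*, *slc4a1a* and *cahz* the ratio to the globins overlapped between the groups. *alas2* had 43.6 and 21.2 reads per 10000 globin reads in double negative replicates 1 and 2, and 35.9 and 51.1 in Venus positive libraries 3 and 4 (exact permutation p = 0.667). *slc4a1a* ranged from 25.04 to 87.2 in the double negative and from 3.99 to 55.2 in the Venus positive libraries (exact permutation p = 0.667), and *cahz* from 64.1 to 161 and from 12.0 to 209 (exact permutation p = 1). A total of 5 genes was compared in this way, and no p can fall below 0.333 before or after adjustment. *klf1* had 2.02 reads per 10000 globin reads in each double negative library, 2.00 in Venus positive library 3, where that value is a single read, and 0 in library 4. *gata1a* (3.41 and 3.15) and *gfi1b* (1.74 and 0.81) had 0 in both Venus positive libraries.

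**Figure D3:**
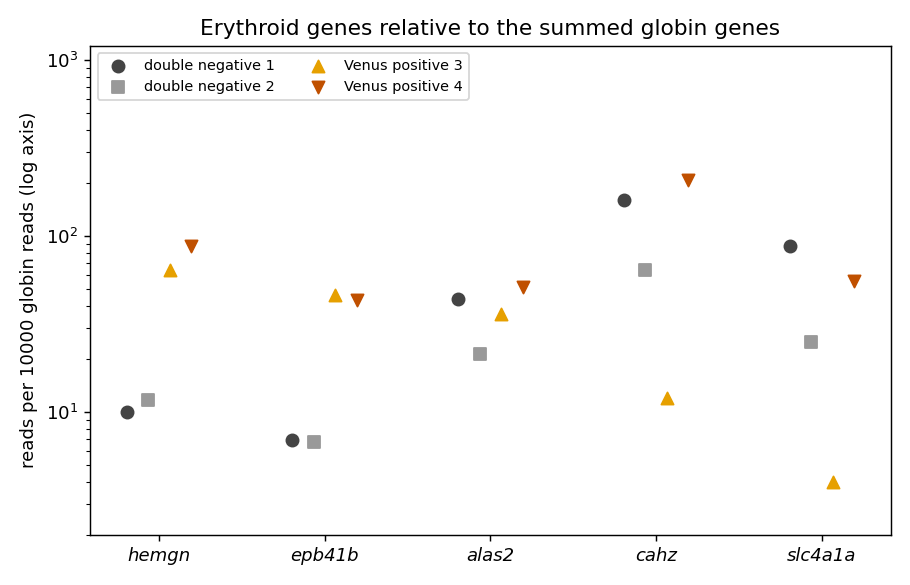
Reads of 5 erythroid genes per 10000 globin reads of the same library, on a log axis, with 1 point per library. The Venus positive libraries lie above the double negative libraries for *hemgn* and *epb41b* and on either side of them, or among them, for *alas2*, *cahz* and *slc4a1a*.

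Epidermal markers fell along with the erythroid genes. A total of 8 of the 13 epidermal genes of the marker list was in the table. All 8 were lower, beside 35.8% of all genes tested. Their summed normalized read counts were 364265 and 293154 in double negative replicates 1 and 2 and 26097 and 54944 in Venus positive libraries 3 and 4, leaving 12.3%. Their largest changes were those of *agr1* (−6.37 on the log2 scale), *icn2* (−6.24, and −5.32 without double negative replicate 2) and *cldne* (−4.15, and −4.77 without Venus positive library 3). Between the Venus positive libraries, 5 of these 8 epidermal genes were higher in library 3, as were 9 of 11 globin rows. The other 3 (*krt4*, *krt5* and *krtt1c19e*) were higher in library 4 and carried the sum, and *cahz* and *slc4a1a* were also higher in library 4. The counts of genes higher in library 3 depend on the scaling. Size factors of libraries 3 and 4 were 0.80 and 1.15, and TPM-based factors 0.87 and 0.91. Divided by the latter, *hbae1.3* (1484 and 1670 reads), *hbbe1.2*, *hbbe3*, *icn* and *cyt1* (3915 and 4280 reads) would be higher in library 4. *cahz* and *slc4a1a* would stay higher in library 4. Epidermal genes with a remaining share near that of *hemgn* and *epb41b* occur in the same libraries, and their part in the values of these genes was not tested. The markers fixed for myeloid cells (0 of 14), blood progenitors (0 of 8) and endothelium (0 of 12) had no row in the table. All 12 mesenchymal markers were higher in the Venus positive cells, beside 484 of the 754 genes tested. The study itself names some of them from these samples. They include *apln*, whose reporter set the gate, so its direction was fixed by the sort. The list was chosen with earlier results of these data known and is no independent marker set. The log2 changes of the 12 markers were 1.79 to 4.76, the highest being *lama2*, with 3.98 without library 3. With TMM and RLE scaling over the listed genes 4 and 3 of them were called higher, beside 84 and 72 of all genes. *foxc1a* turned to −0.09 with RLE. Over the 23016 genes 10 were called, beside 224 higher genes in all. TMM and RLE scaling took the listed genes as their own reference, although the list was selected for a difference between the groups. They brought the median log2 change of all genes from 1.85 to 0.08 and −0.02. Lost calls and turned signs under these 2 scalings, here and below, rest on that reference.

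Between the 2 double negative libraries, the erythroid genes differed in both directions. *slc4a1a*, *cahz*, *gfi1b* and *alas2* were higher in replicate 1, with log2 differences of −0.90, −0.43, −0.20 and −0.14 (replicate 2 minus replicate 1). *hemgn*, *klf1*, *epb41b* and *gata1a* were higher in replicate 2, by 1.11, 0.90, 0.85 and 0.79, as were all 11 globin rows (0.22 to 1.26). On the TPM scale the same 4 genes were higher in each replicate, and 9 of 11 globin rows were higher in replicate 2. The difference was within the range of other genes, whose median was 0.31 with 90% between −0.93 and 1.42, so no gene of the group stood apart from the table. With 2 libraries, no test of this split is possible.

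**Figure D4:**
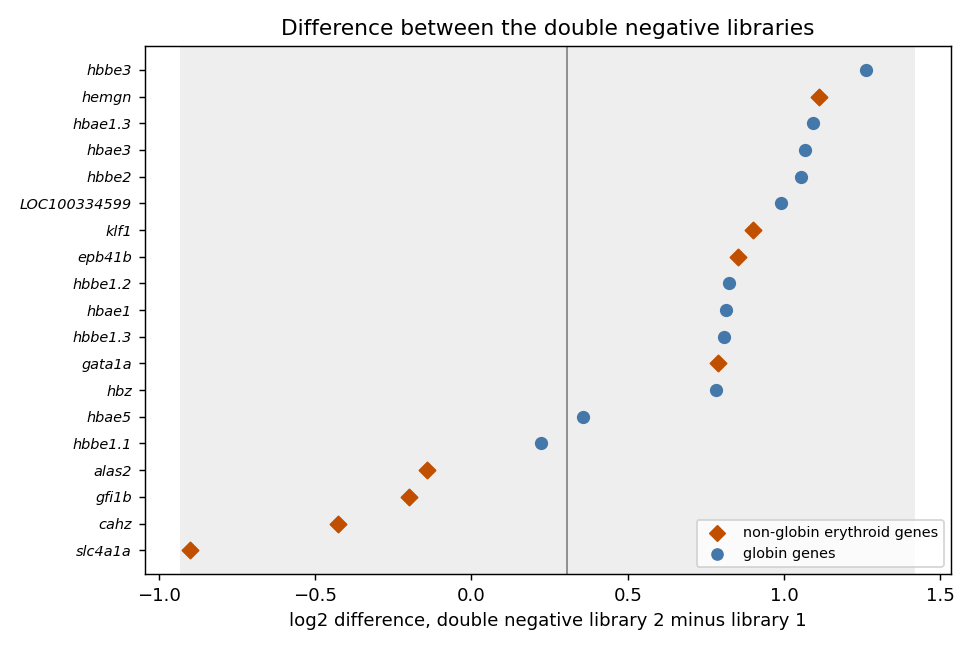
Log2 difference in normalized read count between double negative replicate 2 and replicate 1 for the 8 erythroid genes (diamonds) and 11 globin rows (circles). The grey band holds the central 90% of 705 genes of the table and the line is their median of 0.31. Of the erythroid genes, 4 lie left of 0 and 4 lie right of 0 among the globins.

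Other genes of the red cell programme were looked up in lists by role. Of 21 genes for erythroid transcription, 5 were in the table and all were lower, beside 35.8% of all genes tested. They were *gata1a*, *gfi1b*, *klf1*, *hemgn* and *drl*, the draculin zinc finger gene of zebrafish blood and lateral mesoderm. *drl* had 49.3 and 26.6 normalized read counts in double negative replicates 1 and 2. It had no read in the Venus positive cells, at least 11.9-fold below the double negative mean. Like *gata1a*, *gfi1b* and *klf1*, it passed the filter on low counts only through the double negative libraries, which fixed its direction. Of 22 red cell membrane genes, 6 were in the table and all were lower, again beside 35.8% of all genes tested. Beside *slc4a1a* and *epb41b* they were *rhd*, a Rhesus family gene with 69.8 and 28.6 normalized read counts against 0 reads in both Venus positive libraries (at least 15.4-fold lower, a direction also fixed by the filter), *sptb*, which encodes erythroid beta spectrin (log2 change −3.79, with −4.92 without Venus positive library 4, −3.20 without library 3 and −3.16 without double negative replicate 2), *dmtn*, an actin bundling protein (−1.95), and *aqp1a.1*, a water channel that endothelium also expresses (−1.83). *dmtn* and *aqp1a.1* were no longer called when p was adjusted over the 23016 genes (edgeR quasi-likelihood, adjusted p = 0.104 and 0.163), nor when a double negative library was left out, replicate 1 for *dmtn* (adjusted p = 0.055) and replicate 2 for *aqp1a.1* (adjusted p = 0.075).

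For the remaining steps of red cell formation the table held little. *alas2* was the single gene of 16 for heme synthesis and *cahz* the single gene of 12 red cell enzymes, and none of 17 genes for iron handling had a row. Of 10 genes for erythropoietin signalling, *socs3b*, a feedback inhibitor of cytokine receptors in many cell types, was present and was higher by 1.34 on the log2 scale, a direction that turned to −0.40 and −0.50 with TMM and RLE scaling over the listed genes. *socs3b* was also not called over the 23016 genes (edgeR quasi-likelihood, adjusted p = 0.224), nor without double negative replicate 1 (adjusted p = 0.099) or replicate 2 (adjusted p = 0.051). The thrombocyte list (12 genes) had *gfi1b* itself, *nbeal2* and *thbs1b*. *nbeal2*, a gene for granules of platelets, had 16.4 and 74.6 normalized read counts in double negative replicates 1 and 2 and a single read in each Venus positive library. It too passed the filter only through the double negative libraries, which fixed its direction. *thbs1b*, a matricellular gene that many tissues express, was higher by 2.24 on the log2 scale (0.51 and 0.41, not called, with TMM and RLE scaling). A missing row means that a gene did not pass the authors' threshold or was not listed, not that it was not expressed.

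The profiles most like those of *gfi1b* and *hemgn* were sought among all 756 genes, by the root mean square difference of log2(normalized read count + 1) over the 4 libraries after each gene was centred on its mean. For *gfi1b* these were *btr30* (0.055), *alas2* (0.060), *si:dkey-261j4.4* (0.085), *myf5* (0.11) and *olfm3a* (0.12). All of these but *alas2* had 0 reads in both Venus positive libraries, as *gfi1b* did. With 0 reads, the depth of the *gfi1b* profile was set by the 1 added before the logarithm. The closeness of *gfi1b* to *alas2* therefore depends on that added value, and is no measure of a shared size of change. For *hemgn* they were *si:ch211-250g4.3* (0.18), *epb41b* (0.21), *lmo7a* (0.23), *cyt1* (0.25) and *myo5b* (0.27). The epidermal keratin gene *cyt1* had 37257 and 56394 normalized read counts in double negative replicates 1 and 2 and 4921 and 3713 in Venus positive libraries 3 and 4, so it shared with *hemgn* the higher level in replicate 2 and the remaining share. The 4 libraries are few points, and the list was selected for a difference between the groups, so a close profile is a description only.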

How the data were processed

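Cells sorted from larval heads were profiled by bulk Smart-seq2, with 2 libraries per group. The authors filtered reads, mapped them to GRCz11 with HISAT2 2.0.4, aligned them to genes with Bowtie2 2.4.4 and estimated expected counts with RSEM 1.2.28 (submitters' processing notes). The deposited table holds these expected counts, of which 7.41% were not whole and which were raised to the next whole number. It also holds normalized read counts, a signal the authors made by dividing counts by size factors, and TPM values the authors computed. For the Venus positive libraries, TPM was used as the authors' mean. The authors' size factors were recovered from the double negative columns, and for the Venus positive libraries from 7 genes of the study's source data. The table's columns of fold changes, p-values and Q values were read only to find that the table is the list with Q under 0.05 over 23016 genes. A further 6 per-library columns of the Venus positive libraries, 2 FPKM columns and 18 comparison columns of single libraries were not used.

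Testing used edgeR 4.0.16 (R 4.3.3), quasi-likelihood, two-sided, ~ group, for the 754 genes that reached a count of 10 in 2 or more libraries, with Benjamini-Hochberg adjustment over those genes. The biological coefficient of variation was 0.417. The test was tried on simulated counts. DESeq2 1.42.0, TMM and RLE scaling, no filter, nearest rounding and leaving out each library were alternatives. TPM-based scaling and adjustment over 23016 genes, with ranks among the listed genes only, were added after the data were seen. Exact tests and Poisson limits used scipy 1.17.1. The named genes are every gene of the rule, the 3 most abundant globins, *apln*, the 5 closest profiles of *gfi1b* and *hemgn*, and at most 3 of each other list. The red cell membrane and epidermis lists are exceptions, with more genes named. The draculin-like genes were added after their values had been seen. The genes and lists were chosen with earlier results of these data known. Gene names for 737 IDs came from RefSeq (GRCz12tu), used for names only. In the list for red cell maturation, 1 of 9 genes was found and it was higher in the Venus positive cells, but it is not reported here.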

Additional observations from a re-analysis of the deposited data

How the results depend on the processing

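The 8 erythroid genes were lower and called in all 82 alternative fits that could be run. A further 6 could not be run, because *gata1a*, *gfi1b* and *klf1* fall under the filter when a double negative library is left out. Being called lower across settings is not particular to the 8 genes, since the table was selected on this contrast. In all, 270 genes were called lower in the main fit, and also with DESeq2, nearest rounding and TPM-based scaling. The number of lower genes stayed at 270 with TMM and RLE scaling over the listed genes, while the higher genes went from 484 to 84 and 72, since these scalings moved the median of all genes by −1.77 and −1.87 on the log2 scale. TPM-based scaling moved it by 0.13. Adjustment over 23016 genes left 224 higher and 194 lower genes. With 1 library left out, the lower genes numbered 131 to 268 and the higher genes 400 to 448. The fewest lower genes were called without double negative replicate 2 (131) and replicate 1 (138), where 640 genes passed the filter, and the lone library is assumed to vary like the other group. For *klf1*, the fitted log2 change ranged from −9.25 to −5.63. Relative to *hbae1.3* in place of the globin sum, *epb41b* was higher in the Venus positive cells by 2.59 on the log2 scale, against 2.71. No paired analysis was possible because the Venus positive columns carry numbers that match no sample label. Low read numbers in the Venus positive libraries (0 to 102 reads per gene) limit the fold changes of the 8 erythroid genes.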

Other observations

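Further draculin family genes were chosen after their values had been seen. The draculin-like genes *si:dkey-261j4.3* and *si:dkey-261j4.4*, named *drll.1* and *drll.2* by RefSeq, had 17.3 and 44.0 and 46.8 and 39.9 normalized read counts in double negative replicates 1 and 2. Both had 0 reads in the 2 Venus positive libraries, as *drl* did. They were at least 9.60-fold and at least 13.6-fold below their double negative means, bounds that leave out the spread between the double negative libraries. Like *drl*, both passed the filter on low counts only through the double negative libraries, which fixed their direction. Draculin family genes are similar in sequence and can share reads, so the single values are uncertain. The family members differed in which double negative library was higher, *drll.1* in replicate 2 and *drl* and *drll.2* in replicate 1.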
